A study of Rattus norvegicus with 11 samples.

Results

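10 genes of vessel growth, chosen by name, were followed in the rat striatum after intracerebral hemorrhage. They were the ligands Vegfa, Pgf, Angpt1, Angpt2 and Apln, the receptors Kdr, Flt1, Nrp1 and Tek, and the secreted endothelial product Esm1. Each was found by its symbol, so 10 of the 30560 genes in the deposited table were members. 9 of the 10 passed edgeR's filter on low counts, which left 15742 genes for testing, and Esm1 did not.

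RNA was sequenced from the striatum of 11 adult male Sprague-Dawley rats at day 3, with a library for each rat. The striatum was that of the injected (right) side after hemorrhage and the matching region in Normal, for which no side is given. The common hemorrhage group (IC, 3 rats) had received 0.2 U of collagenase VII-S in 1 μL, an enzyme that opens small vessels in place, and the severe hemorrhage group (IS, 3 rats) 0.6 U in 3 μL. The third hemorrhage group (IS-HA, 3 rats) had received the severe dose, and 150 μL of the hematoma was aspirated at 6 h. The Normal group (2 rats) received neither collagenase nor aspiration, so needle passage and saline are part of every contrast with Normal. The bleeding in this model comes from enzymatic damage to the vessel wall, which is the tissue that carries most of these receptors. Collagenase dose and injected volume differed together between IC and IS.

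Vascular endothelial growth factor A, encoded by Vegfa, is made by astrocytes and other cells under low oxygen and signals mainly through Kdr on endothelial cells. Flt1 binds Vegfa tightly with little signalling of its own and is the receptor of placental growth factor, encoded by Pgf. Nrp1 is a co-receptor that strengthens the binding of Vegfa to Kdr. Angpt1, from cells around the vessel, keeps endothelium quiet through the receptor Tek, while Angpt2, released by activated endothelium, competes for the same receptor and loosens the vessel. Apln, the peptide apelin, and Esm1, endocan, are made by the tip cells that lead a growing sprout.

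Counts assigned to genes ranged from 6701301 (IS-HA replicate 2) to 18817645 (IC replicate 3), so that 3 counts, taken as the floor of detection, stood at 0.159 to 0.448 CPM (counts scaled to the library total). Such floors cover counting error only. The 10 markers of striatal medium spiny neurons were all detected in both Normal rats, with a summed level of 6400 to 6803 TPM (transcript abundance, counts scaled by gene length and to a common sum). IS-HA replicate 2 stood apart: it had the lowest TPM of all 11 rats for 6 of the 10 members (Angpt1, Apln, Flt1, Nrp1, Tek and Vegfa). Its summed TPM of 6 neutrophil markers was 891, against 186 and 236 in the other IS-HA rats. Results for IS-HA are therefore given with and without this rat. Whether a value changed through the number of cells of a type or through RNA per cell cannot be told apart in whole tissue.

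A gene was called when edgeR's quasi-likelihood test gave a Benjamini-Hochberg adjusted p under 0.05 over all tested genes and the absolute log2 fold change was at least 1. Angpt2 and Pgf were called higher than Normal in all 3 hemorrhage groups, and no other tested member was called in any comparison. In IC, 2 of 9 tested members were higher and 0 lower, where 10.9% of all tested genes were called higher and 2.66% lower. In IS, 2 of 9 were higher and 0 lower, against 18.8% and 17.0% of all genes. In IS-HA, 2 of 9 were higher and 0 lower, against 15.1% and 7.71%. The median log2 fold change of the members was 0.22, 0.03 and 0.02 in IC, IS and IS-HA against Normal, and that of all genes was 0.0034, 0.02 and 0.06. The 3 comparisons share the same 2 Normal rats, and the counts over all genes moved with them: without Normal replicate 3, 793 genes were higher and 28 lower in IC, against 1720 and 418. Fits with a rat left out applied the count filter again, so the genes tested and adjusted over could differ too. Nrp1 was also called in IS-HA without IS-HA replicate 2. Where all rats of a group are said to lie above or below another group, this is a description. The share of all genes that separate in this way was not counted. With so few rats, full separation gives an exact two-sided permutation p of 0.2 (3 against 2) or 0.1 (3 against 3).

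**Figure D1:**
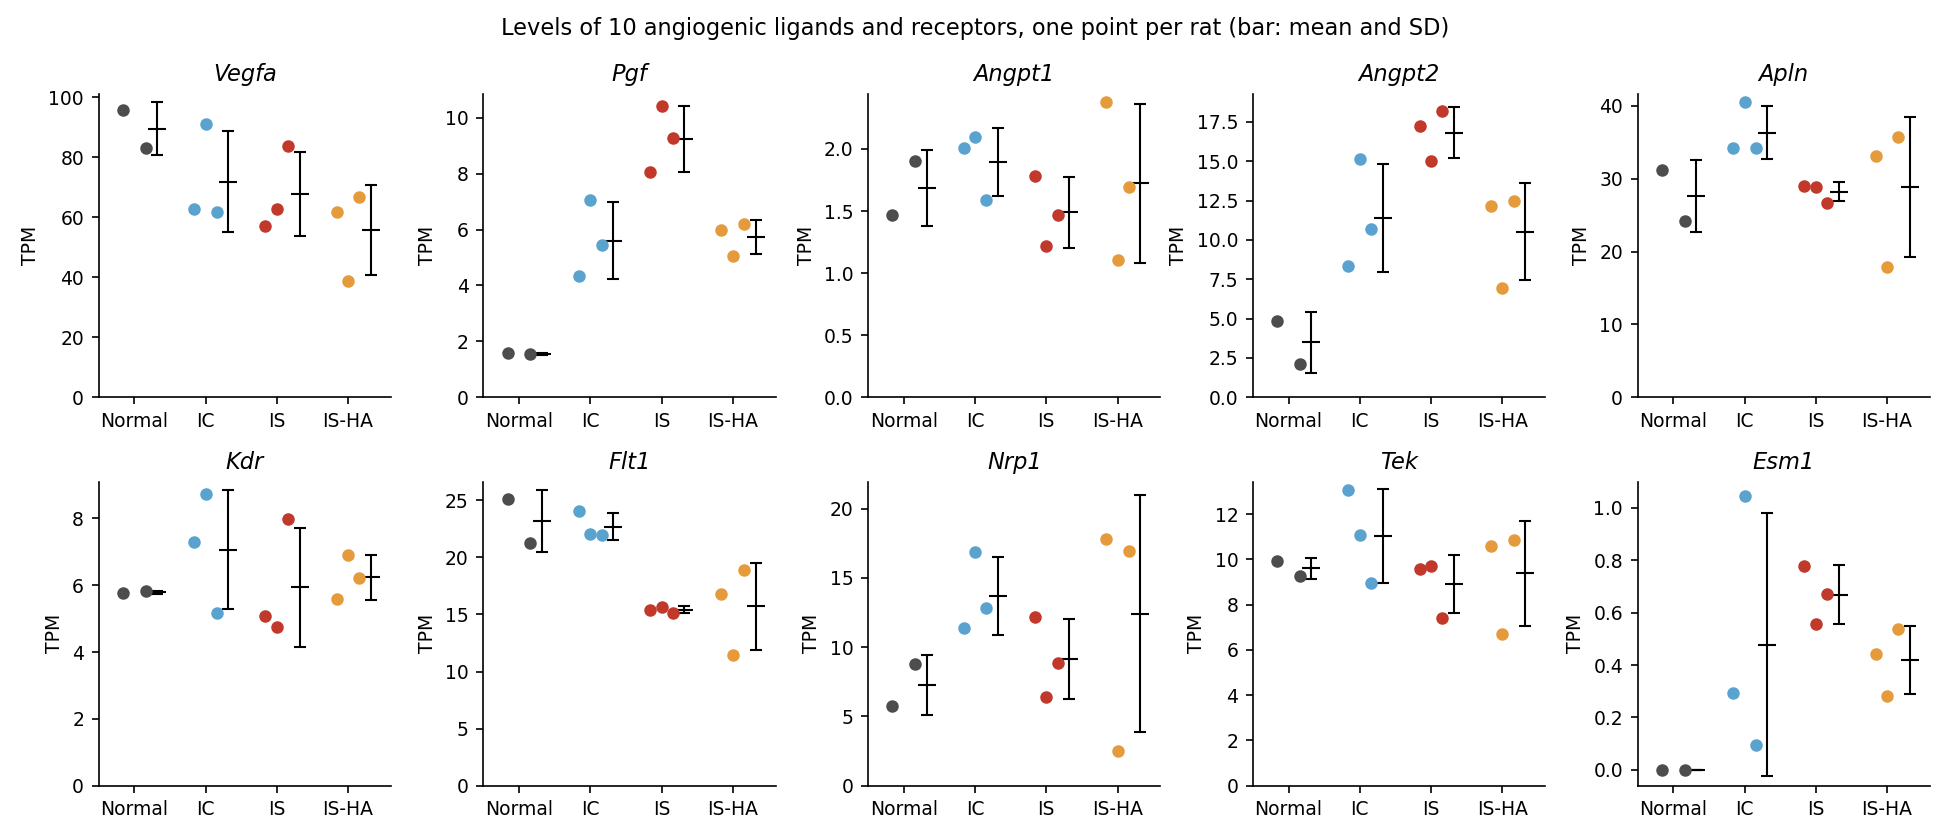
TPM of the 10 members in each of the 11 rats, with a point for each rat in order of replicate number and the mean and SD of each group to the right of its points. Pgf and Angpt2 lie above both Normal rats in all 9 rats with hemorrhage, Flt1 lies below both Normal rats in IS and IS-HA, and the lone low IS-HA point for Nrp1 at 2.53 TPM is replicate 2.

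Of the ligands, Pgf showed the clearest difference from Normal. Its level was 1.58 and 1.53 TPM in the Normal rats, 4.33, 7.05 and 5.44 TPM in IC, 8.06, 10.4 and 9.29 TPM in IS, and 5.98, 5.06 and 6.19 TPM in IS-HA. All 9 rats with hemorrhage lay above both Normal rats, and the IS rats lay above all rats of the other groups. The fitted log2 fold change against Normal was 1.78 (SE 0.317, adjusted p = 0.00333) in IC, 2.58 (SE 0.324, adjusted p = 1.96e-04) in IS and 1.85 (SE 0.321, adjusted p = 0.0021) in IS-HA, by edgeR. These are 3.44-, 5.97- and 3.61-fold increases. The values rested on 18 and 19 counts in the Normal rats and 27 to 91 counts in the others. Without Normal replicate 3 the IC difference was 1.69 (adjusted p = 0.0572) and was no longer called. Without IS-HA replicate 2 the IS-HA difference was 1.82 (adjusted p = 0.00308).

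Angpt2 was the second ligand that rose. Its level was 4.87 and 2.11 TPM in the Normal rats, 8.32, 15.1 and 10.7 TPM in IC, 17.3, 15.0 and 18.2 TPM in IS, and 12.1, 6.96 and 12.5 TPM in IS-HA. Every rat with hemorrhage was above both Normal rats, which themselves differed by more than a factor of 2, and IC and IS overlapped. The log2 fold change against Normal was 1.62 (SE 0.387, adjusted p = 0.016) in IC, 2.26 (SE 0.396, adjusted p = 0.00122) in IS and 1.53 (SE 0.388, adjusted p = 0.0139) in IS-HA, by edgeR, or 3.08-, 4.79- and 2.89-fold. The size depended on the Normal rat used: without Normal replicate 1 the 3 values were 2.43, 3.07 and 2.34, and without Normal replicate 3 they were 1.10, 1.73 and 1.00. Without Normal replicate 3 the call was kept in IS (adjusted p = 0.014) and lost in IC (0.157) and IS-HA (0.128). The IC call was also lost without IC replicate 3 (log2 fold change 1.41, adjusted p = 0.0624). Without IS-HA replicate 2 the IS-HA difference was 1.66 (adjusted p = 0.0112).

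Vegfa, the most abundant member in every group, was not called. Its level was 95.7 and 83.2 TPM in the Normal rats, 62.6, 91.2 and 61.7 TPM in IC, 57.1, 62.7 and 83.6 TPM in IS, and 61.7, 38.7 and 66.6 TPM in IS-HA. The IS-HA rats were all below both Normal rats, while IC and IS each had a rat above the lower Normal value. The log2 fold change against Normal was -0.39 (SE 0.244, adjusted p = 0.285) in IC, -0.38 (SE 0.244, adjusted p = 0.219) in IS and -0.73 (SE 0.243, adjusted p = 0.0421) in IS-HA. The IS-HA value passed the adjusted p and missed the fold cutoff, and without IS-HA replicate 2 it was -0.62 with an adjusted p of 0.089. The adjusted p was above 0.05 in 11 of the 20 alternative analyses, at 0.0512 to 0.22, among them that without Normal replicate 1 and that without Normal replicate 3.

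Angpt1 and Apln were not called, with fitted log2 fold changes against Normal between -0.16 and 0.33. At standard errors of 0.213 to 0.311 a small difference was not detectable in either ligand. Angpt1 was measured at 1.47 and 1.904 TPM in the Normal rats, 1.59 to 2.09 TPM in IC, 1.21 to 1.78 TPM in IS and 1.10 to 2.38 TPM in IS-HA. Its log2 fold changes against Normal were 0.11 (SE 0.305), -0.16 (SE 0.311) and 0.02 (SE 0.308) in IC, IS and IS-HA. Apln was at 31.1 and 24.2 TPM in the Normal rats, 34.3, 40.6 and 34.2 TPM in IC, 29.0, 28.9 and 26.7 TPM in IS, and 33.1, 17.9 and 35.7 TPM in IS-HA. All IC rats were above both Normal rats and above all IS rats for Apln. The log2 fold change of IC was 0.33 (SE 0.213, adjusted p = 0.299). It was 0.03 (SE 0.213) in IS and 0.01 (SE 0.213) in IS-HA. The IS-HA values without IS-HA replicate 2 were 0.15 for Angpt1 and 0.17 for Apln.

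**Figure D2:**
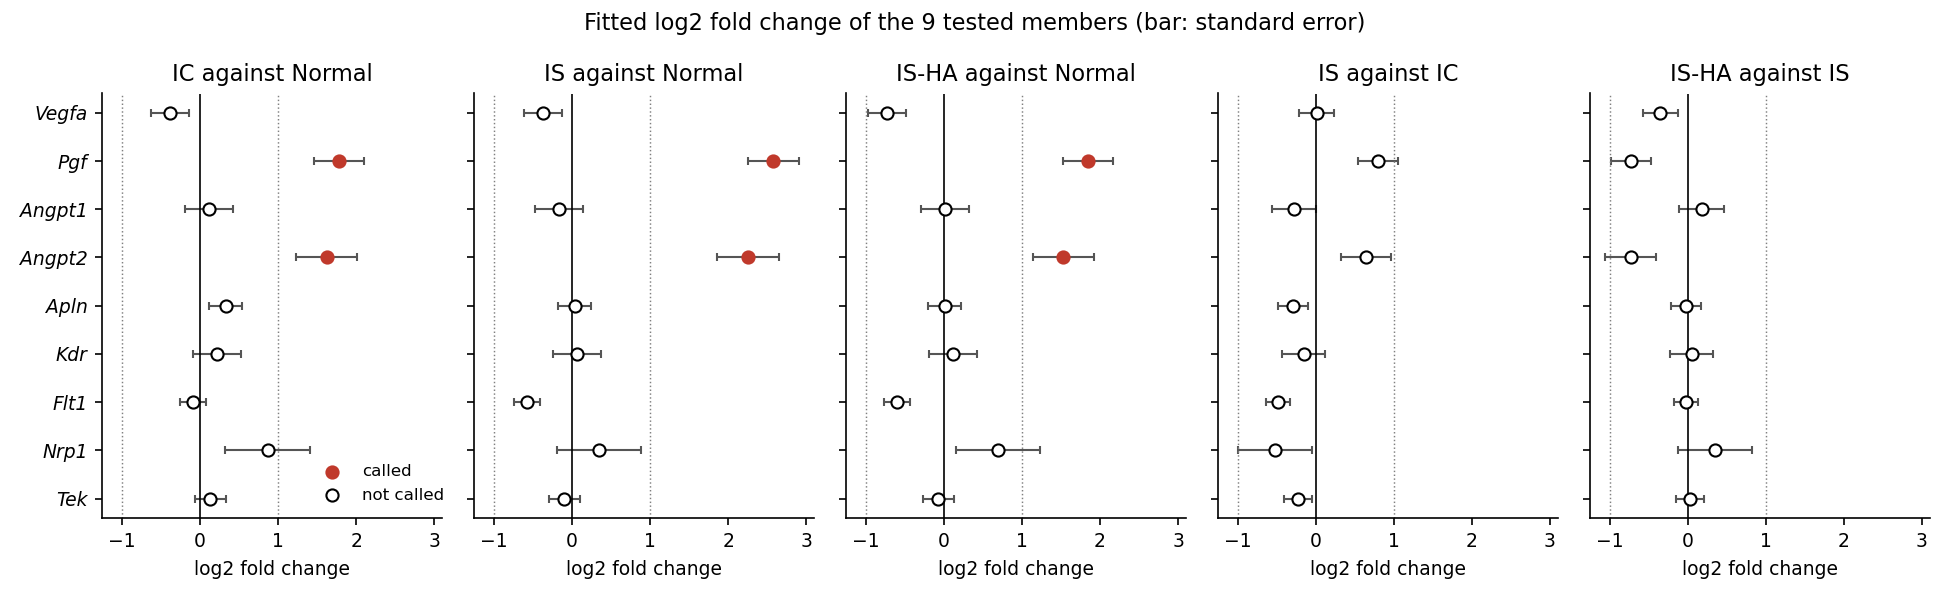
Fitted log2 fold change of the 9 tested members in the 5 comparisons, with bars for the standard error, filled points for called members and dotted lines at log2 fold changes of -1 and 1. Pgf and Angpt2 are the called members, at 1.53 to 2.58 against Normal, and no member is called in IS against IC or IS-HA against IS.

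Among the receptors, Flt1 was lower in severe hemorrhage, below the fold cutoff of a call. Its level was 25.1 and 21.3 TPM in the Normal rats, 24.0, 22.1 and 22.0 TPM in IC, 15.4, 15.7 and 15.1 TPM in IS, and 16.8, 11.5 and 18.9 TPM in IS-HA. The IS and IS-HA rats were all below every Normal and IC rat, and IC overlapped Normal. The log2 fold change was -0.58 (SE 0.169, adjusted p = 0.0163) in IS and -0.60 (SE 0.169, adjusted p = 0.0217) in IS-HA against Normal, and -0.09 (SE 0.169, adjusted p = 0.739) in IC. Without Normal replicate 1 the IS and IS-HA values were -0.38 and -0.40, with adjusted p of 0.173 and 0.187. Without IS-HA replicate 2 the IS-HA value was -0.52 (adjusted p = 0.034). Of the 20 alternative analyses of Flt1, 4 gave an adjusted p above 0.05 in IS (up to 0.187) and 5 in IS-HA (up to 0.187).

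Kdr and Tek were not called and their groups overlapped. Kdr was at 5.76 and 5.81 TPM in the Normal rats, 7.30, 8.73 and 5.17 TPM in IC, 5.09, 4.74 and 7.98 TPM in IS, and 5.58, 6.91 and 6.21 TPM in IS-HA. Its log2 fold changes against Normal were 0.22 (SE 0.305), 0.06 (SE 0.306) and 0.11 (SE 0.306) in IC, IS and IS-HA. Tek was at 9.95 and 9.28 TPM in the Normal rats, 8.95 to 13.1 TPM in IC, 7.43 to 9.72 TPM in IS and 6.72 to 10.9 TPM in IS-HA, and its log2 fold changes were 0.13 (SE 0.198), -0.10 (SE 0.199) and -0.07 (SE 0.199). Both IS-HA values turned without IS-HA replicate 2, to -0.11 for Kdr and 0.0173 for Tek. At these errors a small difference was not detectable in either receptor.

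Nrp1 had the largest standard errors of the tested members. It was at 5.76 and 8.81 TPM in the Normal rats, 11.4, 16.9 and 12.9 TPM in IC, 12.2, 6.39 and 8.88 TPM in IS, and 17.8, 2.53 and 17.0 TPM in IS-HA. The IC rats were all above both Normal rats, and IS-HA held both the highest and the lowest value of all 11 rats. The log2 fold change against Normal was 0.86 (SE 0.539, adjusted p = 0.278) in IC, 0.34 (SE 0.535, adjusted p = 0.613) in IS and 0.69 (SE 0.537, adjusted p = 0.334) in IS-HA. Without IS-HA replicate 2 the IS-HA value was 1.13 with an adjusted p of 0.0129, which would be called, and the IC value of 0.86 had an adjusted p of 0.0262.

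Esm1 was at the edge of detection. No count was seen in either Normal rat, and counts were 4, 18 and 1 in IC, 8, 6 and 5 in IS, and 6, 2 and 5 in IS-HA, or 0.295, 1.04, 0.0948, 0.779, 0.557, 0.669, 0.441, 0.281 and 0.539 TPM in that order. A count was thus seen in all 9 rats with hemorrhage, although 1 or 2 counts in a rat are below the floor. Against a floor of 3 counts over both Normal rats, Esm1 was at least 6.19-fold higher in IC, at least 7.76-fold higher in IS and at least 4.87-fold higher in IS-HA by CPM of the pooled group. The IC bound rested on replicate 3, which held 18 of its 23 counts, and without that rat it was 2.34-fold, an alternative chosen after the values were seen. The IS-HA bound was 5.21-fold without IS-HA replicate 2. In an edgeR fit with no filter on counts (21867 genes), the adjusted p against Normal was 0.0233, 0.00552 and 0.0225 in IC, IS and IS-HA.

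The sequences before the start sites of the VEGF family ligands and their receptors are shown because Pgf was called and Vegfa was not, and because Flt1 and Kdr are the receptors whose ratio was followed. RefSeq promoters of build GRCr8 matched 7 of the 10 members by symbol, with none listed for Angpt1, Angpt2 and Tek, and the 250 bases before the start are given 5′ to 3′ on the gene's strand. Capitals mark GCGTG on either strand (CACGC on the other), a core of the hypoxia response element, and ACGTG, the other form of the core, was searched in the same way. The table lists a further start for Vegfa, with no match to either form.
Pgf chr6:110557748-110557997 (- strand): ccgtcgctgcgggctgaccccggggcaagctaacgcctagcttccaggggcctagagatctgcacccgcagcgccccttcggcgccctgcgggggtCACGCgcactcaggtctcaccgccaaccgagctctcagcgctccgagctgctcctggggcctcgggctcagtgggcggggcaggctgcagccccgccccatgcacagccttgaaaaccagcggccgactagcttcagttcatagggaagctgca
Vegfa chr9:22452604-22452853 (+ strand): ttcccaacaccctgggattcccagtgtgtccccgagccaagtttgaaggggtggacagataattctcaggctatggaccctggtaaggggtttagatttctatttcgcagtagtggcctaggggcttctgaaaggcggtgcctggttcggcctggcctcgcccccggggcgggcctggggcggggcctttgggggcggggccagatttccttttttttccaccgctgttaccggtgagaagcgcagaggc
Flt1 chr12:12333180-12333429 (+ strand): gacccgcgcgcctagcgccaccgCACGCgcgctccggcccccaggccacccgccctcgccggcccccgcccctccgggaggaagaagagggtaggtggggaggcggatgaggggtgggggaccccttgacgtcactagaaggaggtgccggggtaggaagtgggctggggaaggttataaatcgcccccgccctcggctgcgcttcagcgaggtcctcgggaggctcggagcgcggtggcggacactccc
Kdr chr14:32571813-32572062 (+ strand): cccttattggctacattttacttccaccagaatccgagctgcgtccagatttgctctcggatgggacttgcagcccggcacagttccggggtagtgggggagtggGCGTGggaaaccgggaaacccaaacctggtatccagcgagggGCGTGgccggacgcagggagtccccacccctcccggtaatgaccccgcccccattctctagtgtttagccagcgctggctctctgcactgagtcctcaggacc
GCGTG was found once upstream of Pgf (154 bases before the start), Flt1 (227) and Nrp1 (158), at 2 places each upstream of Kdr (145 and 103) and Esm1 (172 and 83), and not upstream of Vegfa or Apln. ACGTG was found upstream of none of the 7. Of all 33469 promoters in the table, 25.9% hold GCGTG and 16.6% ACGTG in this window. A match is a run of letters, not a site in use, and its absence from this window says nothing of the factor.

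On the TPM scale the order of the members changed between Normal and IS. In the Normal rats the group means ran from Vegfa (89.4 TPM) through Apln (27.7), Flt1 (23.2), Tek (9.61), Nrp1 (7.29), Kdr (5.79), Angpt2 (3.49), Angpt1 (1.69) and Pgf (1.56) to Esm1 (0). The neighbours Apln and Flt1, Nrp1 and Kdr, and Angpt1 and Pgf overlapped between rats. In IS, Angpt2 took place 3 with 16.8 ± 1.64 TPM (SD, n = 3), overlapping Flt1 at 15.4 ± 0.277 TPM, and Pgf took place 5 with 9.26 ± 1.18 TPM, overlapping Nrp1 at 9.15 ± 2.91 TPM. Vegfa and Apln kept places 1 and 2 in all 4 groups, with means of 67.8 and 28.2 TPM in IS.

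The dose comparison asks what the larger hemorrhage adds. No member was called between IS and IC by edgeR, where 0% of all tested genes were called higher and 0% lower. DESeq2's Wald test also called 0 members, as did limma's voom with weights for rat quality. Over all tested genes DESeq2 called 256 higher and 347 lower, and voom 338 and 442. At an unadjusted p under 0.05 edgeR had 2 members, Flt1 and Pgf, and 3498 genes in all. These were 22.2% of the tested members and 22.2% of all tested genes, so the members stood at the share of all genes. Pgf was higher in IS in every rat, with a log2 fold change of 0.80 (SE 0.256, adjusted p = 0.159), and Flt1 was lower in every rat, at -0.49 (SE 0.153, adjusted p = 0.156). Angpt2 had a value of 0.64 (SE 0.321, adjusted p = 0.259) with overlapping groups, and Apln -0.29 (SE 0.19, adjusted p = 0.36) with all IS rats below all IC rats. Kdr, Tek, Angpt1, Nrp1 and Vegfa had values of -0.16, -0.23, -0.28, -0.52 and 0.01. The Flt1 adjusted p was 0.0389 without IS-HA replicate 2 and 0.0328 with voom, and that of Pgf was 0.0361 with voom, each below the fold cutoff.

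The aspiration comparison asks what differed by day 3 after removal of blood at 6 h. The IS-HA rats were also anesthetized again and a catheter was passed through the hematoma, with no such procedure described for IS rats. Removal of blood cannot be told apart from these steps. No member was called between IS-HA and IS, where edgeR called 0.00635% of all tested genes higher and 0% lower. DESeq2 and voom also called 0 members, where DESeq2 called 44 of all tested genes higher and 19 lower, and voom 195 and 95. At an unadjusted p under 0.05 edgeR had 1408 genes in all (8.94%) and 2 members (22.2% of those tested), Angpt2 and Pgf. Both ligands were lower in IS-HA than in IS in every rat. The log2 fold change was -0.73 (SE 0.325, adjusted p = 0.556) for Angpt2 and -0.73 (SE 0.259, adjusted p = 0.54) for Pgf, and without IS-HA replicate 2 these were -0.60 and -0.76, with adjusted p of 0.25 and 0.105. Vegfa was at -0.35 (SE 0.221, adjusted p = 0.615), Nrp1 at 0.35 (SE 0.475; 0.78 without IS-HA replicate 2, adjusted p = 0.0754), Angpt1 at 0.18 (SE 0.286), and Kdr, Tek, Flt1 and Apln between -0.03 and 0.05. Without IS-HA replicate 2, Vegfa was at -0.24 (adjusted p = 0.485), Angpt1 at 0.32, Kdr at -0.17, Tek at 0.12, Flt1 at 0.0576 and Apln at 0.13, so that Kdr, Flt1 and Apln turned. The IS rats enter both the dose and the aspiration comparison.

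The balance of the ligands that share Tek was read as the ratio of Angpt2 to Angpt1 TPM within each rat, which does not depend on library size. It was 3.32 and 1.11 in the Normal rats, 4.15, 7.23 and 6.75 in IC, 9.68, 12.4 and 12.4 in IS, and 5.10, 6.32 and 7.37 in IS-HA. The group means were 2.21 ± 1.56 (SD, n = 2), 6.04 ± 1.65, 11.5 ± 1.55 and 6.26 ± 1.14 (n = 3 each). All IS rats lay above all rats of the other groups, and all IC and IS-HA rats lay above both Normal rats. The ratio rested on few counts of Angpt1: 45 and 57 in the Normal rats, 32 to 69 in IC, 21 to 35 in IS and 15 to 62 in IS-HA. On the log2 scale IS exceeded IC by 0.96 and IS-HA was below IS by a difference of -0.88, each with an exact two-sided permutation p of 0.1, the smallest that 3 rats against 3 allow. IC, IS and IS-HA exceeded Normal by 1.62, 2.57 and 1.69 (exact permutation p = 0.2 each, the smallest for 3 against 2). The size depended on the Normal rat used: without Normal replicate 1 these 3 differences were 2.41, 3.36 and 2.48, and without Normal replicate 3 they were 0.82, 1.78 and 0.90. IS-HA differed from Normal by 1.68 and from IS by -0.89 without IS-HA replicate 2. No ratio test passed 0.05 and none could; adjusted over the 10 ratio tests these 5 exact p-values were 0.286.

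The ratio of the receptors for Vegfa, Flt1 to Kdr, ran the other way and with more overlap. It was 4.36 and 3.66 in the Normal rats, 3.29, 2.53 and 4.25 in IC, 3.03, 3.31 and 1.897 in IS, and 3.02, 1.66 and 3.04 in IS-HA. Both Normal rats lay above all IS and IS-HA rats, and IC overlapped Normal and IS. The log2 difference from Normal was -0.28, -0.58 and -0.69 in IC, IS and IS-HA (exact permutation p = 0.4, 0.2 and 0.2, adjusted 0.5, 0.286 and 0.286). IS against IC and IS-HA against IS differed by -0.30 and -0.11 (exact permutation p = 0.5 and 0.6). The difference of IS-HA from Normal was -0.40 without IS-HA replicate 2, and that from IS turned to 0.18.

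**Figure D3:**
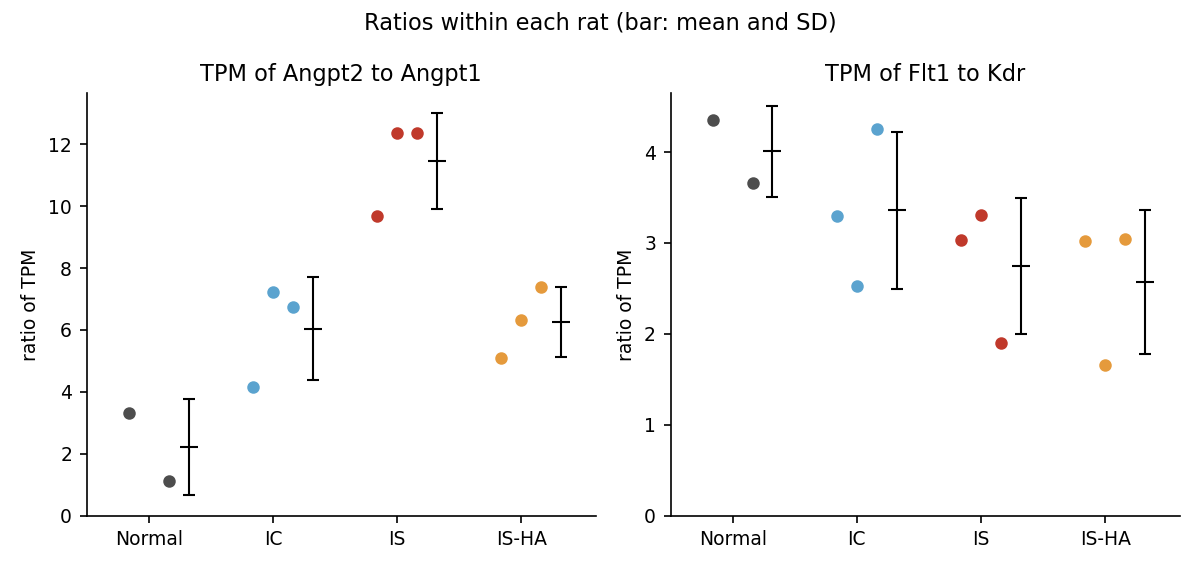
Ratio of TPM within each of the 11 rats for Angpt2 to Angpt1 (left) and Flt1 to Kdr (right), with a point for each rat and the mean and SD of each group. The 3 IS rats have the highest Angpt2 to Angpt1 ratios, 9.68 to 12.4, and both Normal rats have Flt1 to Kdr ratios above those of every IS and IS-HA rat.

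Endothelial markers were read beside these genes. The summed TPM of 10 endothelial markers that are not members was 159 to 227 in Normal, 283 to 341 in IC, 339 to 359 in IS and 276 to 341 in IS-HA, and none was at 0 in any group. Of the 10, 3 were called higher in IS against Normal (Tie1, Egfl7 and Esam, named after their values were seen, at 1.91, 1.19 and 1.11), 1 in IC and 1 in IS-HA (Tie1 in both), and none lower. In IS against Normal 8 of the 10 values were above 0. The others were Slco1a4 at -0.67 (adjusted p = 0.0309 by edgeR, short of the fold cutoff) and Emcn at -0.05. Among all tested genes 18.8%, 10.9% and 15.1% were called higher in IS, IC and IS-HA. The median log2 fold change of the list was 0.48, 0.68 and 0.39 in IC, IS and IS-HA. Against the mean log2 TPM of these markers, Flt1 was at 0.69 ± 0.138 (SD, n = 2) in Normal, 0.10 ± 0.18 in IC, -0.48 ± 0.0362 in IS and -0.36 ± 0.277 in IS-HA (n = 3 each), with no overlap between the Normal, IC and IS rats. Tek and Kdr were at -0.57 ± 0.237 and -1.31 ± 0.317 in Normal and at -1.28 ± 0.213 and -1.9 ± 0.414 in IS. Angpt2 went the other way, from -2.16 ± 0.546 in Normal to -0.94 ± 0.331 in IC, -0.36 ± 0.136 in IS and -0.96 ± 0.392 in IS-HA. The IS-HA means without IS-HA replicate 2 were -0.20 for Flt1 and -0.74 for Angpt2, and the list's median was 0.37 with 1 marker called. These relative levels are a description with no test, and which of the markers are the better reference was not tested.

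**Figure D4:**
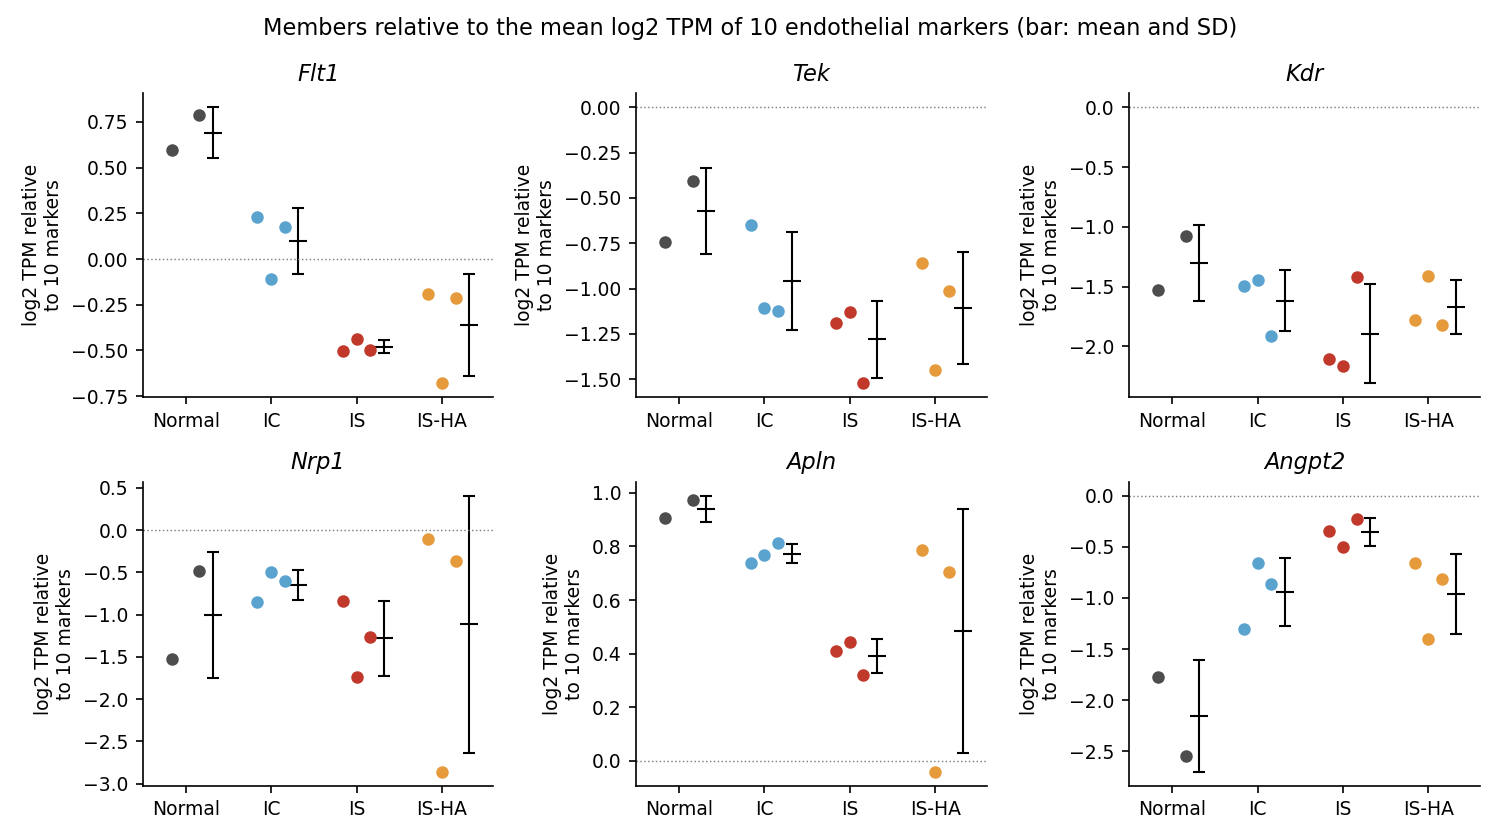
Log2 TPM of 6 members less the mean log2 TPM of 10 endothelial markers in each of the 11 rats, with the mean and SD of each group and a dotted line at 0 where it falls in range. Relative to the markers, Flt1 and Apln step down from 0.69 and 0.94 in Normal to -0.48 and 0.39 in IS, while Angpt2 steps up from -2.16 to -0.36. Apln's own fitted log2 fold change in IS against Normal was 0.03, beside a median of 0.68 for the markers.

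Markers of other cells moved too. All 10 microglia and macrophage markers and all 6 neutrophil markers were called higher than Normal in IC, IS and IS-HA, with median log2 fold changes of 2.97, 3.92 and 3.53 for the former. Their summed TPM ran from 177 to 236 in Normal to 1492 to 2152 in IC, 2568 to 3913 in IS and 1899 to 3053 in IS-HA, and for neutrophils from 5.11 and 5.12 to 91.1 to 301, 526 to 753 and 186 to 891. All 5 markers of dividing cells and 4 of 5 fibroblast markers were called higher in all 3 comparisons with Normal. Of 10 pericyte and smooth muscle markers, the main source of Angpt1, 2 were called higher in each of these comparisons, and 0, 1 and 1 lower in IC, IS and IS-HA. Markers of astrocytes, a source of Vegfa, gave 1 of 7 higher and 1 of 7 lower in each. Of 6 neuron markers, 2, 5 and 1 were called lower, of 10 medium spiny neuron markers 1, 9 and 9, and of 5 oligodendrocyte markers 0, 3 and 0. Beside these marker counts, 10.9%, 18.8% and 15.1% of all tested genes were called higher and 2.66%, 17.0% and 7.71% lower. In the fit without IS-HA replicate 2, all microglia, macrophage, neutrophil and dividing-cell markers and 4 fibroblast markers were again called higher, neuron markers called lower were 5, 5 and 1, medium spiny neuron markers 2, 10 and 9, and pericyte markers called higher 2, 2 and 1. Both erythroid markers found (2 of the 4 listed) were uncalled. The part of these cells in the levels of Pgf, Angpt2, Flt1 and Nrp1 was not tested.

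Vegfa is a standard gene of the response to low oxygen, and 18 other genes of that response and of glycolysis were read beside it. In IS against Normal 4 were called higher (Adm, Car9, Hk2 and Ldha, at log2 fold changes of 5.37, 3.35, 2.12 and 1.24) and 1 lower (Slc2a3, at -1.002), and the median was 0.53 against 0.02 for all genes. In IC 2 were higher (Adm and Hk2) and 0 lower, and in IS-HA the same pair of genes was higher and Ankrd37 lower at -1.17. These genes were named because the counts are small, after their values were seen. The shares of all tested genes called higher were 10.9%, 18.8% and 15.1% in IC, IS and IS-HA, and of those called lower 2.66%, 17.0% and 7.71%. The list's counts without IS-HA replicate 2 were 2 higher in IC, 4 in IS and 3 in IS-HA, with 0 lower in each. Vegfa at -0.38 in IS thus stood below the median of the list.

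Of 63 other genes of vessel growth, 62 were found (Ramp2 was not matched) and 59 were tested. Against Normal, 12 were called higher and 1 lower in IC, 15 higher and 7 lower in IS, and 13 higher and 5 lower in IS-HA. Of all tested genes, 10.9%, 18.8% and 15.1% were called higher in IC, IS and IS-HA, and 2.66%, 17.0% and 7.71% lower. The list's median log2 fold change was 0.23, 0.44 and 0.21. Without Normal replicate 1 or 3 the genes called higher were 7 or 6 in IC and 8 in either case in IS-HA. Those called lower in IS were 4 without Normal replicate 3 and 4 without IS replicate 4, and in IS-HA 2 without Normal replicate 3. Without IS-HA replicate 2, 15 were higher and 4 lower in IC, 15 and 7 in IS, and 16 and 4 in IS-HA. The 1 gene called lower in IC ran from 0 to 4 as rats were left out. The 5 largest increases in IS were Thbs1 (6.43, SE 0.97, adjusted p = 5.49e-04), an inhibitor of angiogenesis, Adm (5.37, SE 0.626), the vasodilator peptide adrenomedullin, Cxcr4 (4.95, SE 0.713), a chemokine receptor of tip cells and of leukocytes, Angptl4 (3.68, SE 0.503), an inhibitor of lipoprotein lipase, and Igf1 (2.74, SE 0.566), a growth factor. The adjusted p of these 5 was at most 0.00294. Several of them are also made by macrophages. The 5 largest decreases were Efnb2 (-2.71, SE 0.615, adjusted p = 0.0048), the arterial ephrin ligand, Bmpr2 (-2.58, SE 0.515), a receptor for bone morphogenetic proteins, the guidance cues Sema3e (-2.09, SE 0.46) and Sema3a (-1.71, SE 0.433), and Cxcl12 (-1.15, SE 0.274), the ligand of Cxcr4. Their adjusted p was at most 0.00838. In the same comparison 5 of 6 neuron markers and 9 of 10 medium spiny neuron markers were called lower. The part of neurons in these decreases was not tested.

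**Figure D5:**
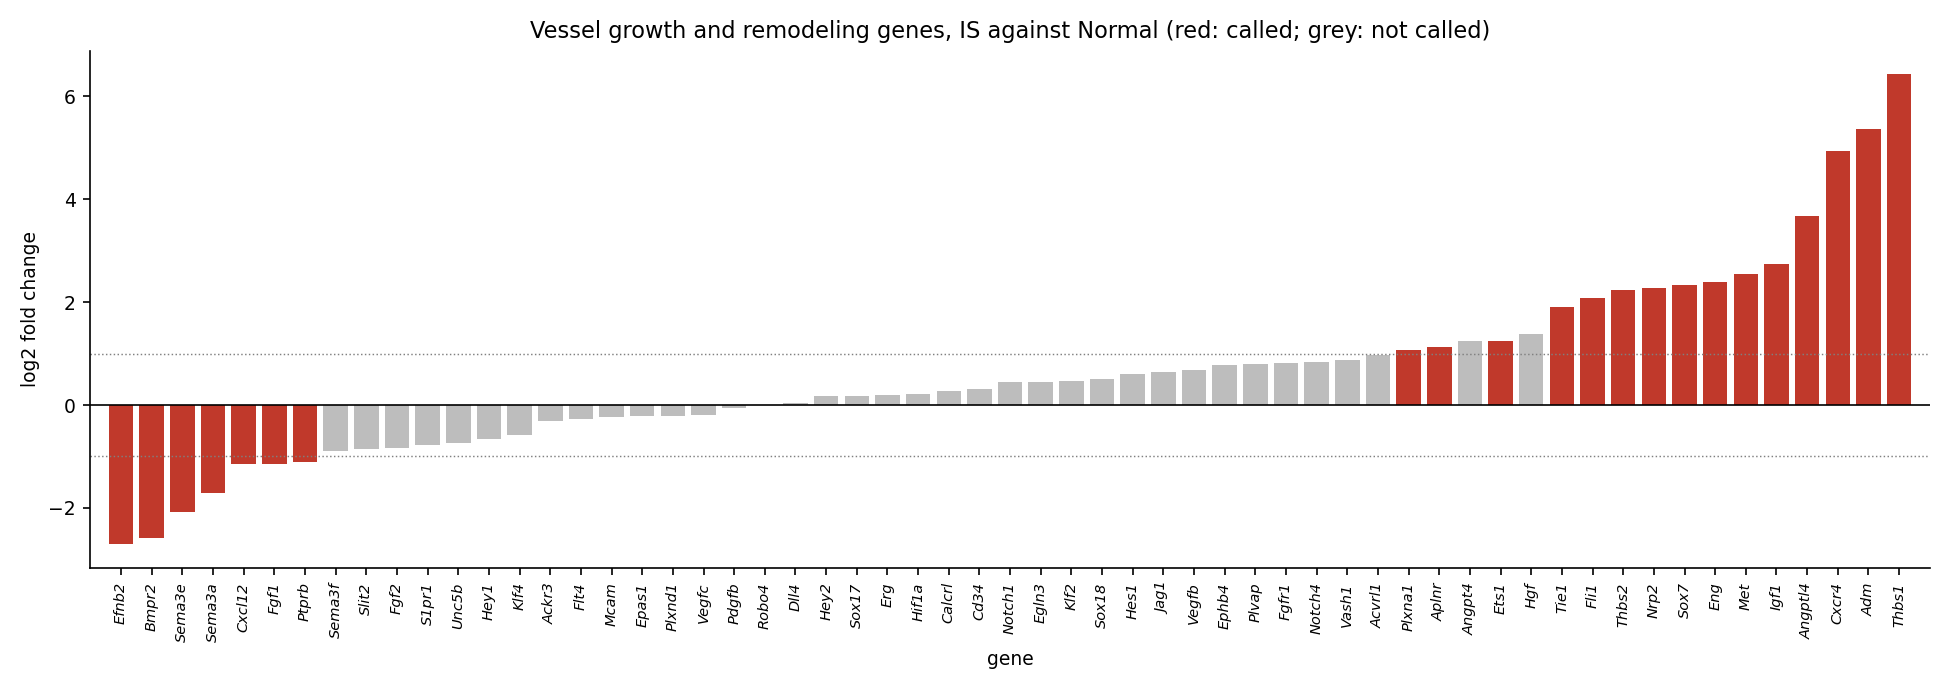
Log2 fold change in IS against Normal of the 59 tested genes of vessel growth that are not members, in order, red where called, with dotted lines at -1 and 1. 15 genes are called higher, up to Thbs1 at 6.43, and 7 lower, down to Efnb2 at -2.71, beside 18.8% and 17.0% of all tested genes.

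By rule, the 3 genes whose log2 CPM were most like each tested member over the 9 rats with hemorrhage were taken, as a description with no test. The points share library and group. For Angpt2 they were Ftsj3 (Pearson r = 0.983), Ybx1l1 (0.975) and Itprip (0.974), and for Pgf AABR07060610.1 (0.991), C9h6orf141 (0.966) and Sbds (0.959). For Flt1 they were Tspear (0.95), Grik2 (0.934) and Ric8b (0.922), and for Vegfa Dchs1 (0.949), Ampd3 (0.948) and Msantd2 (0.937). For Kdr they were Nme7 (0.959), Ptcd3 (0.948) and Mks1 (0.907), and for Tek Bbs5 (0.967), Ripor1 (0.964) and Prr12 (0.962). For Angpt1 they were Tsc22d2 (0.965), Xrn2 (0.956) and Zfp84 (0.947). For Apln they were Efcc1 (0.965), Prrc2a (0.959) and Abcb4 (0.953), which fell to 0.91, 0.89 and 0.862 without IS-HA replicate 2. For Nrp1 they were Fam185a (0.983), Fnip2 (0.98) and Ube2q2 (0.98), at 0.941, 0.939 and 0.935 without that rat. For the other 7 members the values without it lay between 0.907 and 0.991.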

How the data were processed

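RNA-seq of the striatum of 11 rats was used, from the injected side after hemorrhage and the matching region in Normal, with no rat left out. Poly(A) libraries were made with a stranded kit per the labels, and the submitters' processing notes name fastp 0.20.0, HISAT2 2.1.0, SAMtools 1.9, featureCounts and build mRatBN7.2. The version of the annotation is not given in the sources used here. The authors deposited read counts per gene as whole numbers without normalization or filter, and TPM, in which counts are divided by gene length and scaled to a common sum.

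From the counts, library sizes were scaled by TMM and genes were filtered with filterByExpr in edgeR 4.0.16 (R 4.3.3). The quasi-likelihood test was fitted to all 11 rats in 4 groups, with Benjamini-Hochberg adjustment over 15742 genes. Standard errors are approximate, from the size of the log2 fold change over the root of its F statistic. Ratios of TPM were tested with SciPy 1.17.1 (exact permutation of rats, two-sided). Alternatives were DESeq2 1.42.0, limma 3.58.1 (voom with quality weights, and trend on log2(TPM + 1)), other scalings and filters, each rat left out, and the replicate number as a block. The Esm1 bounds with a rat left out, and the marker lists and IS-HA means without IS-HA replicate 2, were added after the data were seen. The fit was also run on simulated data with a common spread for all genes and no rat set apart. Changes were placed only in well-counted genes, so the run does not bear on low genes such as Angpt1 and Pgf. The totals of 6701301 to 18817645 counts set the precision of low genes such as Esm1.

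The members and lists were chosen with earlier results of these data known. The genes named beside the members were, by rule, the 5 largest and 5 smallest log2 fold changes among called vessel growth genes in IS against Normal and the 3 genes most like each member. Replicates differed from each other by more than counting noise (chi-square per degree of freedom 11.8 to 88.9), and none was counted as a duplicate. Rats were separate animals, and same-numbered rats of different groups were not the same animal.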

Additional observations from a re-analysis of the deposited data

How the results depend on the processing

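In IS against Normal the calls of Angpt2 and Pgf were kept in all 20 alternatives run, with log2 fold changes of 1.73 to 3.07 for Angpt2 and 2.00 to 2.71 for Pgf. Of 900 member values under an alternative, 842 kept their direction and whether they were called, 51 turned in direction, 5 lost a call and 2 gained one. The count of members called higher ran from 0 (without Normal replicate 3) to 2 in IC against Normal, and from 1 (without Normal replicate 3) to 3 (without IS-HA replicate 2) in IS-HA against Normal, as rats were left out. In IS against Normal the count rose in part of the fits with a rat left out and never fell. None of the members behind the 900 values gained a call there, and these counts take in Esm1 wherever it passed the filter. With only the groups compared the count of members called higher was 1 in IS-HA against Normal, where Angpt2 stood at 1.51 (adjusted p = 0.0768). Of the 842, 27 crossed an adjusted p of 0.05 without a change of call: 20 lost it (Vegfa in IS-HA against Normal, and Flt1 in IS and IS-HA against Normal, as given above) and 7 gained it. With the replicate block these adjusted p-values were 0.135 for Vegfa and 0.187 and 0.115 for Flt1. Nrp1 was called in IS-HA against Normal with voom (1.06, adjusted p = 0.0156). With no fold cutoff, 1 member (Flt1) was lower in IS and 2 (Flt1 and Vegfa) in IS-HA against Normal. Where a group was left with 1 rat, that rat was taken to vary like the other groups. Over all genes, DESeq2 called 256 higher and 347 lower in IS against IC and 44 and 19 in IS-HA against IS, voom called 338 and 442, then 195 and 95, and edgeR without IS-HA replicate 2 called 348 and 616, then 395 and 86. Over all alternatives, genes called in IC against Normal ran from 793 to 2045 higher (1720 reported) and from 15 (replicate block) to 1087 (only the groups compared) lower (418 reported). In IS they ran from 1827 to 3908 higher (2959) and from 869 to 3802 lower (2674), both lowest with the replicate block, and in IS-HA from 1205 to 3067 (2383) and 324 to 1898 (1213). Over the 59 vessel growth genes, the replicate block called 3 higher and 0 lower in IC, 0 lower in IS and 1 lower in IS-HA against Normal.

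The reported values that turned were at most 0.35 in size on the log2 scale, and the cause was not tested. With library size alone, Vegfa in IS against IC was -0.0145, Flt1 in IC against Normal 0.0476, and Tek 0.0310 in IS and 0.0639 in IS-HA against Normal. With voom, Vegfa in IS against IC was -0.0351, Kdr -0.16 in IS and -0.0888 in IS-HA against Normal, Tek in IS-HA against Normal 0.0167, and Flt1 and Apln in IS-HA against IS 0.0616 and 0.11. With DESeq2's size factors in edgeR and with DESeq2, Angpt1 in IS-HA against Normal was -0.0251 and -0.0055, and Apln -0.0326 and -0.0294. With limma on TPM, Vegfa in IS against IC was -0.0772 and Angpt1 in IS-HA against Normal -0.0017. With no filter, Vegfa in IS against IC was -0.0080, and with only the groups compared, Apln in IS-HA against Normal was -0.0106. With the replicate block, Vegfa in IS against IC was -0.0097, Kdr in IS against Normal -0.19, Tek 0.0759 in IS against Normal and -0.11 in IS-HA against IS, and Nrp1 in IS-HA against IS -0.0774. The block moved no count of member calls. Over all genes it called 824 higher in IC and 584 lower in IS-HA against Normal, beside the counts given above. Same-numbered rats did not deviate together (correlations of -0.475 to 0.356), so the numbers were not taken to pair the rats.

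With each rat left out, values that crossed 0 ranged as follows. In IC against Normal, Flt1 ran from -0.27 to 0.11 and Angpt1 from -0.0014 to 0.24. In IS against Normal, Kdr ran from -0.27 to 0.22, Tek from -0.21 to 0.0173 and Apln from -0.20 to 0.30. In IS-HA against Normal, Kdr ran from -0.11 to 0.25, Angpt1 from -0.24 to 0.15, Tek from -0.19 to 0.0451 and Apln from -0.22 to 0.27. In IS against IC, Vegfa ran from -0.23 to 0.17. In IS-HA against IS, Kdr ran from -0.17 to 0.38, Flt1 from -0.13 to 0.0576, Angpt1 from -0.0712 to 0.32, Tek from -0.0483 to 0.12, Apln from -0.17 to 0.13, and the log2 ratio of Flt1 to Kdr from -0.35 to 0.18. Depth limits Esm1 most, at 18 counts or fewer in a rat.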
